A study of Homo sapiens with 24 samples.

Results

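Induction of NOD1 for 6 h was examined within a single engineered line by setting 4 arrays of doxycycline (DOX)-treated cells against 4 arrays of untreated cells of the same line, which is 8 of the 24 arrays in the series. Both groups were THP-1, an established human monocytic leukaemia cell line, stably transduced with a lentivirus that places a FLAG-tagged NOD1 coding sequence under a tetracycline-inducible promoter (pSLIK_Neo, selected with G418). The induced group received DOX at 1 µg/ml for 6 h and the uninduced group received none, with 50000 cells seeded per well of a multiwell plate. The same comparison existed in an empty-vector line and in a line with inducible NLRP4, each again with 4 arrays per group. Each gene was represented by its brightest probe set with a single gene symbol, which gave 18417 genes. Infection was kept at low copy so that most cells would hold a single integration, and each line was a selected population rather than a named clone. No bacterial ligand is named in the treatment. The series title places the question in how a modest change in NOD1 level affects inflammation. The comparison therefore asks which transcripts differ after 6 h of raised NOD1 RNA.

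NOD1 is a cytosolic receptor of the NOD-like family that senses peptidoglycan fragments containing diaminopimelic acid. It carries a caspase recruitment domain through which it engages the kinase RIPK2, and RIPK2, ubiquitinated by XIAP and other ligases, activates the TAK1 and IKK kinases. The pathway is known for turning on NF-kB and MAP kinase target genes, among them chemokines such as CXCL8, and excess NOD1 protein can signal without ligand in transfected cells.

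Values below are log2 signals after quantile normalization between arrays, and a difference of 1 is a 2-fold change. Before normalization the array medians ran from 8.30 to 8.81 in the uninduced group and from 8.28 to 8.62 in the DOX group. Pairs of uninduced arrays differed gene by gene with a median SD of 0.303, pairs of DOX arrays with 0.274, and pairs taken across the groups with 0.294. The value across the groups thus lay between the values within them. Of 16 monocytic markers 14 were measured, and their rank among all genes ran from percentile 28.4 for MPO to percentile 99.8 for CTSG with a median of 73.0. The T cell, B cell, erythroid, epithelial and packaging-line lists had median percentiles between 16.7 and 37.2, as a rough check only, since brightness also depends on the probes. The log2 of the summed signal of the monocytic list ran from 16.18 to 16.23 in uninduced arrays and from 16.18 to 16.26 in DOX arrays, and no marker of the 6 lists was called. Within each line the uninduced arrays carry lower array numbers than the DOX arrays on a plate whose order was not randomized, so DOX and place in that order cannot be told apart. The labels do not say that wells came from separate cultures, and what the p-values weigh is the spread between wells, which may be technical.

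NOD1 RNA rose 16.2-fold in the mean of the 4 DOX arrays over that of the 4 uninduced ones. The uninduced arrays read 8.90, 8.65, 8.51 and 8.87, a mean of 8.74 ± 0.19 (SD, n = 4). The DOX arrays read 12.98, 12.60, 12.62 and 12.80, a mean of 12.75 ± 0.18 (SD, n = 4). The lowest DOX array stood far above the highest uninduced one. The difference was 4.02 on the log2 scale with a standard error of 0.13 (95% interval 3.74 to 4.29, limma adjusted p = 7.39e-16). A two-sided exact permutation test of the 4 arrays against 4 gave p = 0.0286, the smallest it allows. The 16 arrays of the other lines lay between 8.09 and 8.74, with group means of 8.34 and 8.40 in the vector line and 8.29 and 8.52 in the NLRP4 line, without and with DOX. The probe set reads the introduced and the endogenous NOD1 transcript together, and no background level was measured, so the fold may understate the change.

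Besides NOD1, the only gene called at an adjusted p under 0.05 was KLHL5, a BTB-kelch protein of a family in which several members act as substrate adaptors of cullin 3 ubiquitin ligases. KLHL5 read 8.95, 8.87, 9.05 and 9.38 in the uninduced arrays and 9.86, 10.02, 9.86 and 9.81 in the DOX arrays. The groups did not overlap, and the uninduced array nearest to the DOX arrays was the one at 9.38. KLHL5 rose by 0.83 on the log2 scale with a standard error of 0.12 (95% interval 0.59 to 1.06, a 1.77-fold difference, limma adjusted p = 0.00239). Its mean was 10.40 without and 10.37 with DOX in the vector line, and 10.14 and 10.18 in the NLRP4 line. The uninduced NOD1 line, at 9.06 ± 0.23 (SD, n = 4), was thus the lowest of the 6 groups, and with DOX its mean of 9.89 was still below all 4 groups of the other lines. KLHL5 was not called on the deposited values without further normalization (adjusted p = 0.0610), when only the 8 arrays entered the fit (0.249) and without the 4 dimmest arrays (0.0692), while the difference itself stayed between 0.79 and 0.83. Together the 2 called genes were 0.0109% of the genes tested. Leaving out 1 of the 8 arrays at a time gave 2 to 8 called genes, with NOD1 and KLHL5 in each of these 8 fits.

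**Figure D1:**
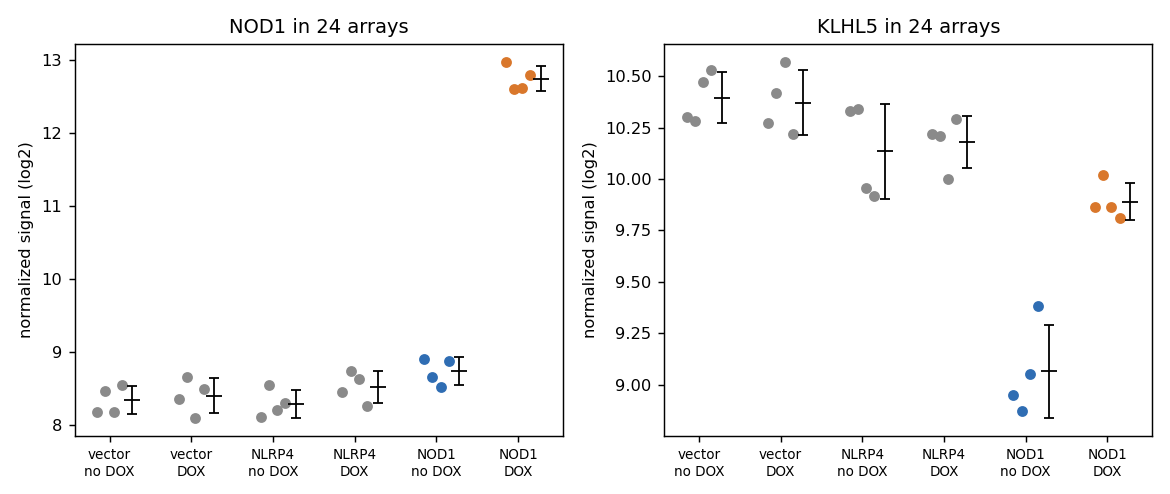
Log2 signal (quantile-normalized, y axis) of NOD1 and KLHL5 in each of the 24 arrays, arranged by line and DOX treatment (x axis), with points for arrays and bars for the mean ± SD (n = 4). NOD1 lies between 12.60 and 12.98 in the DOX-treated NOD1 line and between 8.09 and 8.90 in the other 5 groups, while KLHL5 is lowest in the uninduced NOD1 line, at 8.87 to 9.38.

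Across the whole gene table the changes were small. The median absolute difference was 0.08 on the log2 scale, and 37 genes were at least 1.5-fold higher and 28 at least 1.5-fold lower. In all, 1062 genes had an unadjusted p under 0.05, 5.77% of those tested, of which 523 were higher with DOX (2.84%) and 539 lower (2.93%). All 4 DOX arrays lay above all 4 uninduced arrays for 187 genes (1.02%) and below them for 245 genes (1.33%). Of all ways to order 4 arrays against 4, a share of 0.0286 separates them fully in one direction or the other, so these counts show no excess. The 95% interval of the difference lay wholly within a 2-fold change in either direction for 18272 genes, or 99.2%, and within a 1.5-fold change for 92.9%. All intervals in this report rest on a spread pooled over the 24 arrays of the 3 lines. The closest pairs within a group were DOX-treated vector arrays, with SDs of 0.208 to 0.214, while the lowest SD within a NOD1-line group was 0.266. The intervals may therefore be narrower than the NOD1-line arrays alone would give. The share with an unadjusted p under 0.05 was 5.00% among the dimmest, 5.59% among the middle and 6.71% among the brightest 6139 genes. Among 16903 protein-coding genes 491 were higher and 482 lower at that level, and among 634 long non-coding RNA genes 13 were higher and 24 lower.

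**Figure D2:**
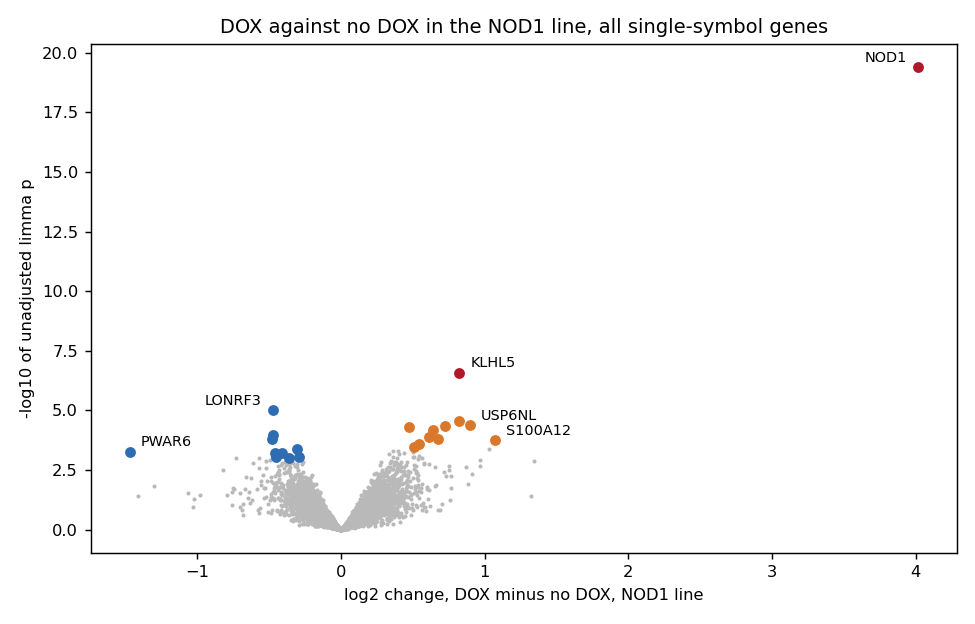
Difference between DOX-treated and uninduced arrays of the NOD1 line on the log2 scale (x axis) against the negative log10 of the unadjusted limma p (y axis) for 18417 genes. NOD1 (4.02) and KLHL5 (0.83) are in dark red as the 2 called genes, and the next lowest p-values on either side are orange where higher with DOX and blue where lower.

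The genes next in order of p were not called, and their values are given as measured. The 12 higher genes with the lowest p included 4 that shared an adjusted p of 0.129. CERS5, a ceramide synthase, read 8.07, 8.61, 8.81 and 8.77 without DOX and 9.54, 9.03, 9.57 and 9.40 with it, a difference of 0.82 (95% interval 0.49 to 1.15). USP6NL, a GTPase-activating protein for Rab GTPases, read 8.46, 8.16, 8.88 and 8.72 without DOX and 9.74, 8.99, 9.71 and 9.39 with it, a difference of 0.90 (0.53 to 1.27). In both genes every DOX array lay above every uninduced array, and the same DOX array was the lowest of the 4, at 9.03 and 8.99. PCGF5, a RING finger protein of variant Polycomb repressive complexes, read 8.94, 8.22, 8.92 and 9.28 without DOX and 9.50, 9.74, 9.40 and 9.60 with it, a difference of 0.72 (0.42 to 1.02). RPRD1B, a protein that binds the C-terminal domain of RNA polymerase II, ran from 9.20 to 9.68 without DOX and from 9.84 to 9.98 with it, a difference of 0.48 (0.28 to 0.67). The wider spread of PCGF5 and RPRD1B lay in the uninduced arrays, with SDs of 0.44 and 0.21 against 0.15 and 0.08 with DOX.

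The remaining 6 higher genes had adjusted p-values from 0.156 to 0.411. KLHDC2, a kelch-repeat substrate receptor of cullin 2 ubiquitin ligases, stood 0.64 higher (adjusted p = 0.156) and HSPA13, an HSP70-like protein of the endoplasmic reticulum, 0.62 higher (0.244). SAMD9, an interferon-inducible antiviral protein, read 9.32, 8.58, 9.45 and 9.02 without DOX and 9.72, 10.00, 9.65 and 9.70 with it, a difference of 0.67 (adjusted p = 0.249). S100A12, a calgranulin of granulocytes and monocytes, read 7.70, 8.16, 7.55 and 8.14 without DOX and 8.38, 9.05, 9.84 and 8.59 with it. Its groups did not overlap, but the DOX arrays spanned from 8.38 to 9.84 and the difference of 1.07 had an adjusted p of 0.253. SLA, a Src-like adaptor that dampens receptor signalling, and NSUN3, a methyltransferase for mitochondrial transfer RNA, stood 0.54 and 0.51 higher, and in both the array ranges overlapped. Of the 12 genes including NOD1 and KLHL5, 10 had DOX arrays wholly above the uninduced ones, which is read only as a description because these genes were picked by their p in the same contrast.

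Among lower genes LONRF3, a RING finger protein with a LON protease-like domain, came nearest to a call with an adjusted p of 0.0608. It read 9.67, 9.86, 9.53 and 9.45 without DOX and 9.14, 9.07, 9.26 and 9.15 with it, a difference of -0.47 (95% interval -0.65 to -0.30). All 4 DOX arrays lay below the lowest uninduced array. With the 6139 dimmest genes left out and the fit repeated on the rest, its adjusted p was 0.0365, which is a call. SPICE1, a spindle and centriole protein, ran from 9.25 to 9.67 without DOX and from 8.81 to 9.16 with it, a difference of -0.47 (adjusted p = 0.217). MICALCL ran from 8.35 to 8.54 without and from 7.79 to 8.06 with DOX, a difference of -0.48 (adjusted p = 0.249). ABCC4, an exporter of cyclic nucleotides and prostaglandins, differed by -0.31 (adjusted p = 0.442) with the narrow range of 9.86 to 9.99 in the DOX arrays.

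BCL2L11, which encodes the pro-apoptotic BH3-only protein BIM, read 9.48, 9.93, 9.98 and 9.70 without DOX and 9.42, 9.43, 9.41 and 9.21 with it. The gap between the groups was narrow, from 9.43 to 9.48, and the difference of -0.41 had an adjusted p of 0.454. SLC35E3 differed by -0.46 at the same adjusted p. UBASH3B, a phosphatase that restrains tyrosine kinase signalling, ran from 9.60 to 9.73 without DOX and from 9.10 to 9.38 with it, a difference of -0.45 (adjusted p = 0.470). PPRC1, a relative of the mitochondrial biogenesis coactivator PGC-1, differed by -0.45, RGS20, a regulator of G protein signalling, by -0.36 and MUCL1 by -0.29, all at an adjusted p of 0.470. PWAR6, a non-coding RNA of the Prader-Willi region, had the most negative difference in the table, -1.47, with SDs of 0.64 and 0.88 and overlapping groups (adjusted p = 0.454). TXLNGY, a Y-linked relative of taxilin gamma, differed by -0.38 on its brighter probe set and by 0.24 on its other one.

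**Figure D3:**
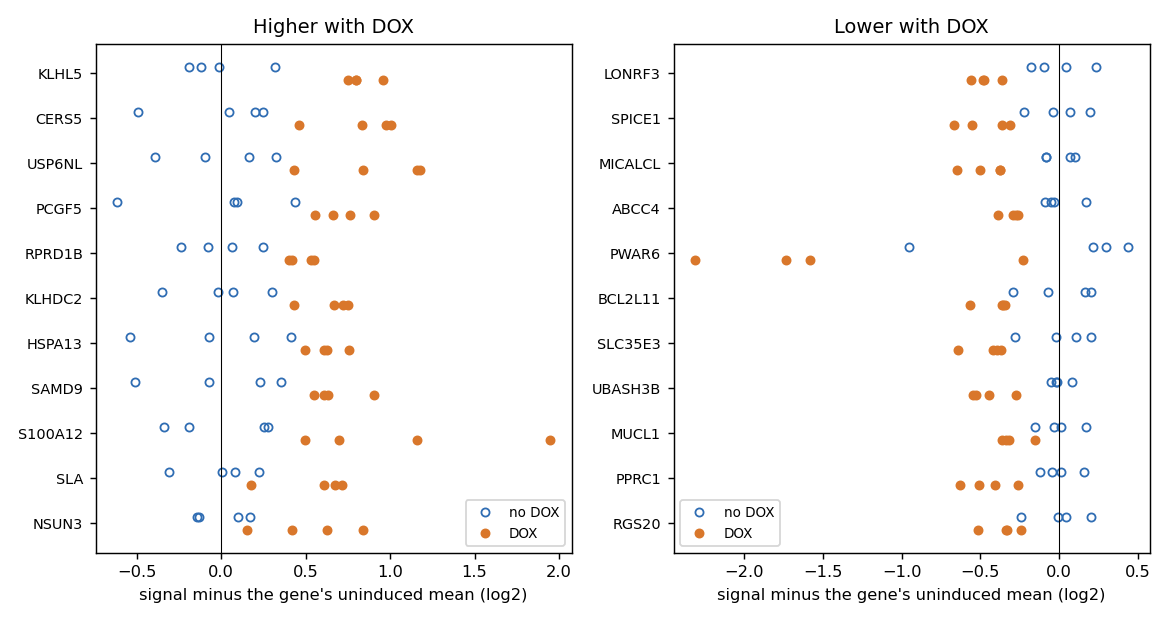
Log2 signal of each NOD1-line array relative to the mean of the 4 uninduced arrays (x axis) for the 11 higher genes other than NOD1 and the 11 lower genes other than TXLNGY with the lowest p (y axis), with separate points for uninduced and DOX arrays. The groups are separated for KLHL5 and LONRF3 and overlap for SLA, NSUN3 and PWAR6, the last of which has the widest spread.

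The same DOX treatment in the other lines gave the matching comparison without induced NOD1. In the vector line limma called no gene (0%), with 622 genes at an unadjusted p under 0.05 (3.38%). In the NLRP4 line limma called 3 genes (0.0163%), with 1482 at an unadjusted p under 0.05 (8.05%). Across genes the DOX effect of the NOD1 line correlated with that of the vector line at r = 0.05 (Spearman 0.04) and with that of the NLRP4 line at r = -0.09 (Spearman -0.09), as a description over 18417 genes that are not independent replicates.

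Testing the difference between DOX effects, 1 gene was called against the vector line (0.00543%), which was NOD1, with a difference of 3.95 between the effects. At an unadjusted p under 0.05 there were 745 genes (4.05%). Against the NLRP4 line 2 genes were called (0.0109%), NOD1 at 3.79 and NLRP4 at -3.84, with 1474 genes at an unadjusted p under 0.05 (8.00%). For KLHL5 the effect exceeded that of the vector line by 0.85 (95% interval 0.52 to 1.19, adjusted p = 0.234) and that of the NLRP4 line by 0.78 (adjusted p = 0.184). KLHL5 itself differed by -0.03 with DOX in the vector line and by 0.05 in the NLRP4 line. The interval against the vector line lay above 0, yet neither difference passed the adjustment over all genes.

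CERS5 also stood higher with DOX in the other lines, by 0.55 in the vector line (95% interval 0.23 to 0.88) and by 0.46 in the NLRP4 line (0.13 to 0.79). The effect of the NOD1 line exceeded that of the vector line by 0.27, with an interval from -0.20 to 0.73 that included 0. USP6NL differed by -0.33 in the vector line and by -0.10 in the NLRP4 line, and the effect of the NOD1 line exceeded that of the vector line by 1.23 (0.70 to 1.75, adjusted p = 0.299). LONRF3 differed by 0.13 in the vector line and by -0.12 in the NLRP4 line, and the effect of the NOD1 line lay 0.60 below that of the vector line (adjusted p = 0.255).

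HSPA13 and NSUN3 were like CERS5 in that DOX went with a higher mean in the vector line too, by 0.36 and 0.37. Their differences between the effects of the NOD1 and vector lines were 0.25 (-0.14 to 0.65) and 0.15 (-0.21 to 0.50). BCL2L11 stood lower with DOX in every line, by -0.41 in the NOD1 line, -0.21 in the vector line and -0.24 in the NLRP4 line, and the difference between the first 2 was -0.19 (-0.50 to 0.11). S100A12 went the other way in the vector and NLRP4 lines, at -0.43 and -0.29, and the effect of the NOD1 line exceeded that of the vector line by 1.5 (0.79 to 2.21, adjusted p = 0.731). The levels behind these effects differed between the lines. Among the 12 higher genes, the mean of the uninduced NOD1 line lay below both other uninduced lines in 9 and above both in 2. Among the 12 lower genes it lay above both in 8 and below both in 4. These genes were picked by a contrast that holds the uninduced NOD1-line mean, which favours such positions, so the counts are only a description. PCGF5 averaged 8.84 in the uninduced and 9.56 in the DOX-treated NOD1 line against 10.36 to 10.45 in the groups of the other lines, and SAMD9 averaged 9.09 and 9.77 against 10.91 to 11.09.

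**Figure D4:**
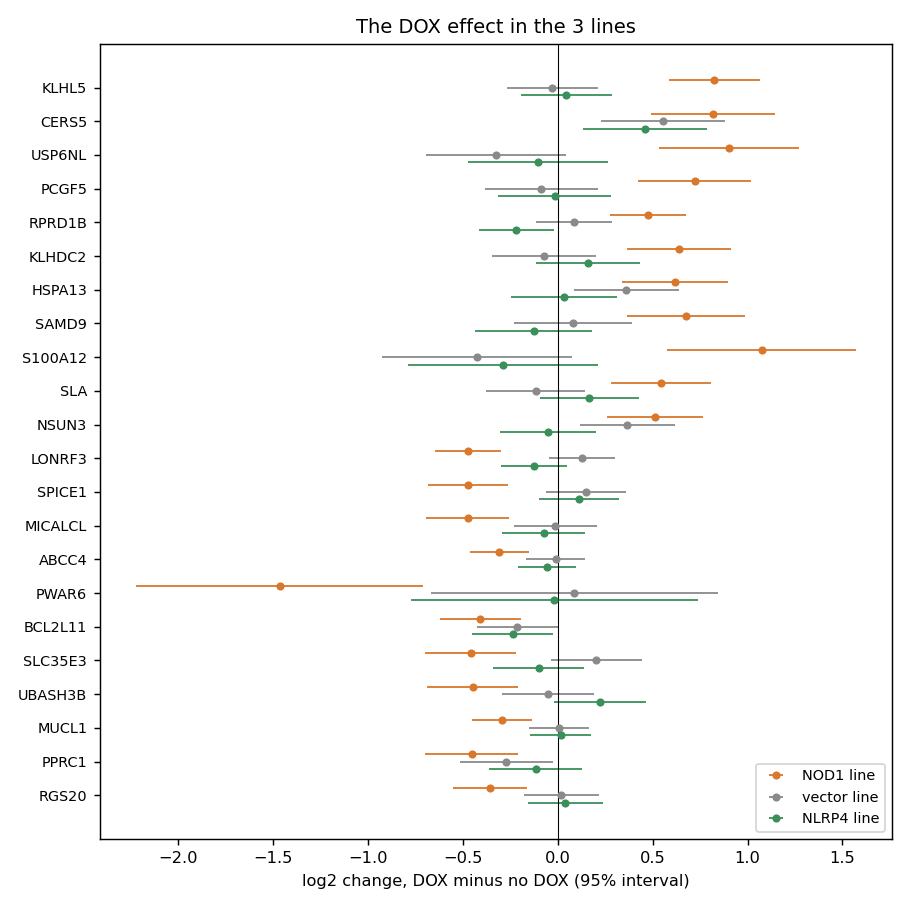
DOX-treated minus uninduced log2 signal (x axis) with its 95% interval in the NOD1, vector and NLRP4 lines, for the 11 higher and 11 lower genes (y axis). For CERS5 the intervals of all 3 lines lie above 0, whereas for KLHL5 the intervals of the vector and NLRP4 lines include 0.

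The first steps of NOD1 signalling were read through a list of 33 partners, of which 29 were measured. No partner was called by limma. At an unadjusted p under 0.05, 1 was higher and 1 lower, each 3.45% of the list, against 2.84% and 2.93% of all genes. The list's median difference was -0.03, against -0.00 over all genes. RIPK2, the kinase that NOD1 recruits, read 9.36, 9.24, 9.40 and 9.22 without DOX and 9.75, 9.80, 9.47 and 9.28 with it. Of the DOX arrays 3 lay above all uninduced arrays and 1 lay among them. The difference was 0.27 (95% interval 0.02 to 0.52, adjusted p = 0.821), and in the vector and NLRP4 lines it was -0.10 and -0.28. XIAP, the ubiquitin ligase that modifies RIPK2, differed by -0.30 with an interval from -0.75 to 0.15. ATG16L1, an autophagy protein that NOD1 recruits to the plasma membrane, differed by -0.34 (unadjusted p = 0.0454), and SLC15A4, an endolysosomal peptide transporter, by -0.31.

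The NF-kB list was made up of subunits, feedback inhibitors and survival genes. Of its 31 measured members none was called by limma, 1 was higher and 5 were lower at an unadjusted p under 0.05, and the median was -0.02. The lower members were 16.1% of the list, against 2.93% of all genes. The upper bound of the 95% interval lay below a 1.5-fold rise for all 31, as it did for 17621 of the 18417 genes. NFKBIA, the inhibitor IkB-alpha and a rapid NF-kB target, read 10.86, 11.15, 10.60 and 11.22 without DOX and 10.76, 10.15, 10.92 and 10.56 with it. The groups overlapped, and the difference was -0.36 (-0.66 to -0.06, adjusted p = 0.785). In the vector line NFKBIA differed by -0.19, and the NOD1-line effect minus that of the vector line was -0.17 (-0.59 to 0.26). Its uninduced mean was 10.96 in the NOD1 line, 9.77 in the vector line and 9.76 in the NLRP4 line. TNFAIP3, which encodes the deubiquitinase A20, differed by -0.18 and NFKB1, the p105 and p50 subunit, by 0.04. TRAF1, BCL2A1 and CD83 had the lowest p of the list, at -0.36, -0.44 and 0.34. With DOX in the vector line they differed by -0.22, -0.21 and -0.04. The promoters of NFKBIA and of CXCL8, a chemokine gene classically driven by NF-kB, are printed to show the letters that were searched, with matches in capitals (RefSeq, GRCh38.p14, 250 bases before to 50 after the start of the gene, on the gene's strand). NFKBIA lies at chr14:35404700-35404999 on the minus strand and CXCL8 at chr4:73740319-73740618 on the plus strand.
NFKBIA: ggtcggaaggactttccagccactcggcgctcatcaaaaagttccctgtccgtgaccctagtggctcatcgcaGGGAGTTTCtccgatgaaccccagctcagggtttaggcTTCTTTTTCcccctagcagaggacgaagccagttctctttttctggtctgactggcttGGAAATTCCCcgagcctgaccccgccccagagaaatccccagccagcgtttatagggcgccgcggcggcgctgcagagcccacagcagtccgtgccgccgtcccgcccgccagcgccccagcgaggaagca
CXCL8: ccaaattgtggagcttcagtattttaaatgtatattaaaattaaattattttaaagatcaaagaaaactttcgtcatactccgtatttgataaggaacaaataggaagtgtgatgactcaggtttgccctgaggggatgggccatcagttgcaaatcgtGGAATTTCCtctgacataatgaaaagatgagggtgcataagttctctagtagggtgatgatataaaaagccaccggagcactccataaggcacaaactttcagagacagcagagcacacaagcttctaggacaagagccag
In NFKBIA the capitals mark GGGANNTTC, a match to GAAANNGAA on the other strand, and a stretch where GGAANTTCC and GGGANNTTC overlap on opposite strands. In CXCL8 they mark GGAANTTCC.

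The letters GGAANTTCC or GGGANNTTC, kB-like forms that can overlap each other, occurred on either strand in 4.72% of 27305 promoters of this length. They occurred in 6 of the 27 NF-kB list genes with a promoter entry and in 15 of the 33 cytokine genes with one. Across the 679 measured genes that held either form, the median DOX difference in the NOD1 line was -0.00, with 14 higher and 14 lower at an unadjusted p under 0.05. Over all 18417 genes 523 were higher and 539 lower at that level. A match of letters describes the sequence only and is no evidence of a bound site.

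Of 42 measured cytokine and chemokine genes none was called by limma, 1 was higher and 4 were lower at an unadjusted p under 0.05, and the median was -0.01. The lower members were 9.52% of the list, against 2.93% of all genes. CXCL8 read 8.83, 9.12, 8.54 and 9.32 without DOX and 8.70, 9.26, 8.71 and 8.53 with it, so that the groups overlapped throughout. Its difference of -0.15 had a 95% interval from -0.60 to 0.30. TNF read 8.36, 8.92, 9.14 and 9.27 without DOX and 8.70, 8.61, 8.50 and 8.54 with it, a difference of -0.34 (adjusted p = 0.795). IL1B, the precursor of interleukin-1 beta, read 8.11, 8.63, 9.11 and 8.21 without DOX and 8.06, 8.32, 8.06 and 7.41 with it, a difference of -0.55 (-0.95 to -0.15, adjusted p = 0.693). In each of these 3 genes an uninduced array lay within or below the DOX range. SPP1, the secreted phosphoprotein osteopontin, differed by -0.46, CCL2 by 0.14 and IL6 by 0.02. Uninduced means in the NOD1, vector and NLRP4 lines were 8.9, 8.1 and 8.2 for TNF and 8.5, 7.7 and 7.8 for IL1B. For SPP1 they were 8.3, 7.3 and 7.3, and for CXCL8, which went the other way, 9.0, 9.3 and 9.3. With DOX the NOD1-line means of TNF, IL1B, SPP1 and CXCL8 were 8.6, 8.0, 7.9 and 8.8. The upper bound of the 95% interval lay below a 1.5-fold rise for 40 of the 42 and below a 2-fold rise for all 42, where the counts over all 18417 genes were 17621 and 18335.

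Of 42 measured immediate early and MAP kinase feedback genes none was called by limma, none was higher and 5 were lower at an unadjusted p under 0.05, and the median was -0.05. The lower members were 11.9% of the list, against 2.93% of all genes. IER3 was among the lower members of both this list and the NF-kB list, and MYC of both this list and the growth regulator list. The zinc finger factor EGR1 differed by -0.29 (95% interval -0.57 to 0.00), FOS by 0.00 and JUN by 0.04. The members with the lowest p were CCN2, a matricellular growth factor, at -0.22, KLF10, a TGF-beta-responsive repressor, at -0.19 and MYC at -0.23. With DOX in the vector line CCN2 differed by -0.15, KLF10 by 0.09 and MYC by -0.32. For MYC the NOD1-line effect minus that of the vector line was 0.09. The upper bound lay below a 1.5-fold rise for all 42, against 17621 of 18417 over the gene table.

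Interferon-stimulated genes had the highest median of the lists measured, at 0.14, with 35 of 49 members above 0. None was called by limma. At an unadjusted p under 0.05, 7 were higher, or 14.3% of the list against 2.84% of all genes, and 2 were lower, or 4.08% against 2.93%. The upper bound of the 95% interval lay below a 1.5-fold rise for 34 of the 49, against 17621 of 18417 over the gene table. The list's median was 0.10 in the values as deposited and 0.14 with arrays centred on their medians, where all genes had medians of -0.04 and 0.01. The G2/M and mitosis list stood close by on those scalings, at 0.095 and 0.14. In the vector and NLRP4 lines the median of the interferon-stimulated list was 0.00 and 0.01. SAMD9 at 0.67, described above, came first. DDX60, a helicase-like antiviral factor, read 8.74, 8.51, 8.48 and 8.63 without DOX and 8.89, 8.87, 9.10 and 8.94 with it, a difference of 0.36 without overlap (adjusted p = 0.534). OAS2, an oligoadenylate synthetase, read 9.28, 9.50, 9.14 and 9.03 without DOX and 10.05, 10.11, 9.49 and 9.32 with it. Its groups overlapped, and the difference was 0.50 (adjusted p = 0.692). IFIT2, HERC5, GBP5 and OAS1 differed by 0.54, 0.36, 0.44 and 0.30, while IFI35 and XAF1 differed by -0.35 and -0.29. The differences between the effects of the NOD1 and vector lines were 0.59 for SAMD9 (0.16 to 1.03, adjusted p = 1.00), 0.11 for DDX60 and 0.54 for OAS2. For SAMD9, DDX60 and KLHL5 the promoters are printed because the first 2 lead this list and KLHL5 is the called gene, at chr7:93117930-93118229 on the minus strand, chr4:168318703-168319002 on the minus strand and chr4:39061982-39062281 on the plus strand.
SAMD9: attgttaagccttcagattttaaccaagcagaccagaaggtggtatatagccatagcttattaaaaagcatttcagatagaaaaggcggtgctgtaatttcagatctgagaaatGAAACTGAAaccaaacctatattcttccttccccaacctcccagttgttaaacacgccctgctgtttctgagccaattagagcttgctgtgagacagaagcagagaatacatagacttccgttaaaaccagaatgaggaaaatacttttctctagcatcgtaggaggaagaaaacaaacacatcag
DDX60: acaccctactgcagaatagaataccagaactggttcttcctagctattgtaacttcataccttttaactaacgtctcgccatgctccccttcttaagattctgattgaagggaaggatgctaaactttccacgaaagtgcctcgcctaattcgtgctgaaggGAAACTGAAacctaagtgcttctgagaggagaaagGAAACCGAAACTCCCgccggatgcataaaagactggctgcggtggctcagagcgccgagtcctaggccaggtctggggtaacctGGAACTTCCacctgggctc
KLHL5: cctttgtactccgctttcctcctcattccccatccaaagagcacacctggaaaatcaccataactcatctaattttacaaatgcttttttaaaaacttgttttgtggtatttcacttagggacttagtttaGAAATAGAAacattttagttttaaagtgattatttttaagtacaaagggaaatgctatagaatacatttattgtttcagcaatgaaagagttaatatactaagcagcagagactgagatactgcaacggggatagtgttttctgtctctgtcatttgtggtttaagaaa
Capitals mark GAAANNGAA, a core of the interferon-stimulated response element, in all 3. In DDX60 one of these matches overlaps GGGANNTTC on the other strand, and the capitals near the 3′ end mark GGAANTTCC.

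GAAANNGAA occurred on either strand in 8.29% of the 27305 promoters and in 6.83% of the 14239 that belong to measured genes. Among interferon-stimulated genes with an entry it occurred in 27 of 39, or 69.2%. The 27 had a median difference of 0.14, with 3 higher and none lower at an unadjusted p under 0.05. All 49 measured members of the list also had a median of 0.14, with 7 higher and 2 lower. Across all 972 measured genes that held the letters the median was 0.00, with 28 higher and 36 lower, where the 18417 genes held 523 and 539. Genes with these letters as a whole therefore did not stand apart from the gene table's median of -0.00.

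Among 32 measured pattern recognition receptors and adaptors none was called by limma. At an unadjusted p under 0.05 none was higher and 3 were lower (9.4% of the list, against 2.93% of all genes). These were NLRP3, the inflammasome sensor, at -0.23, NLRP6 at -0.23 and TLR8, an endosomal receptor for single-stranded RNA, at -0.26. NOD2, the closest relative of NOD1, ran from 7.43 to 8.02 without DOX and from 7.81 to 7.91 with it, a difference of 0.16 (95% interval -0.08 to 0.39). NLRP4 differed by 0.00 in the NOD1 line, against 3.84 where it was the induced gene. Of 37 inflammasome, caspase and cell death genes none was called, 2 were higher and 3 lower at that level, with GSDME, a pore-forming gasdermin, at 0.47 and the anti-apoptotic BCL2A1 at -0.44. The shares were 5.41% and 8.11% of the list, against 2.84% and 2.93% of all genes.

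In the autophagy list 2 of 37 were higher (5.41%) and 1 was lower (2.70%) at an unadjusted p under 0.05, against 2.84% and 2.93% of all genes. The protease ATG4C stood at 0.48, the cargo receptor NBR1 at 0.37 and ATG16L1 at -0.34. Among genes of the unfolded protein and heat shock responses 1 of 32 was higher (3.1%) and none lower. The higher one was DNAJB9, a co-chaperone of the endoplasmic reticulum, at 0.53 (adjusted p = 0.497). In the amino acid and integrated stress list none of 36 was higher and 2 were lower (5.56%), the transporters SLC1A5 at -0.41 and SLC7A5 at -0.42. In the NRF2 and metallothionein list 2 of 30 were higher, MT1E at 0.29 and ferritin light chain FTL at 0.19, and 3 were lower, among them TXNRD1 at -0.19. These were 6.67% and 10.0% of the list, against 2.84% and 2.93% of all genes. Its lowest difference was -0.28, for AKR1C3. No member of these 4 lists was called by limma, and their medians lay between -0.01 and 0.03. Medians this close to 0 differed in sign between the scalings tried for the partner, cell death, unfolded protein, amino acid, NRF2 and S phase lists.

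Differences among genes of mitochondrial translation and respiration were small. Of 73 mitochondrial ribosomal protein genes 3 were higher (4.11%, against 2.84% of all genes) and none lower at an unadjusted p under 0.05. The higher ones were MRPS15 at 0.27, MRPL40 at 0.40 and MRPS17 at 0.37, and the median was 0.03. Of 68 nuclear-encoded respiratory chain genes 1 was higher (1.47%), the ATP synthase subunit gene ATP5MC2 at 0.22, and none was lower. The G2/M and mitosis list had a median of 0.07 with 34 of 46 above 0 (0.10 in the values as deposited and 0.14 with arrays centred), and 5 were higher, or 10.9% of the list against 2.84% of all genes, and 1 was lower. CDC25C, a phosphatase that activates CDK1, differed by 0.46, the hyaluronan-mediated motility receptor HMMR by 0.26 and the kinesin KIF4A by 0.23, while CDC25B differed by -0.24. The S phase list had none of 49 higher and 1 lower (2.04%, against 2.93% of all genes), RPA2 at -0.30. No member of these 4 lists was called by limma.

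Of 22 cholesterol synthesis genes none was called and 1 was higher at an unadjusted p under 0.05 (4.55%, against 2.84% of all genes), the sterol oxidase MSMO1 at 0.41. The list's median was 0.01 against 0.05 in the vector and 0.18 in the NLRP4 line. Of 36 growth regulators and oncogenes none was called, none was higher and 3 were lower (8.33%, against 2.93% of all genes). The lower ones were the receptor tyrosine kinase KIT at -0.49, MYC at -0.23 and the cyclin CCND3 at -0.29. KIT read 9.10, 9.23, 8.98 and 9.05 without DOX and 8.95, 8.63, 8.38 and 8.44 with it, without overlap, and differed by 0.15 in the vector line. MYC and CCND3 differed there by -0.32 and -0.15. Relatives of KLHL5, CERS5 and LONRF3, together with USP6, made up a list of 42 measured genes, mostly kelch-like. None of them was called by limma, none had an unadjusted p under 0.05, and the differences ran from -0.32 for KLHL41 to 0.17 for KLHL38.

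Apart from NOD1, the differences of at least 2-fold lay mostly in small RNAs. Of 5 genes higher and 6 lower by that size, NOD1 alone was called. SNORD57 and SNORD4A stood 1.35 and 1.33 higher, and SNORD20, SNORD4B, SNORD61, SNORA5A and the small nuclear RNA RNVU1-15 stood at -1.30, -1.06, -1.03, -1.02 and -1.41. All of these overlapped between the groups, with SDs of up to 1.58 within a group. The other members were S100A12, KIAA1107 at 1.03 and PWAR6.

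The nearest named neighbours of NOD1 on the chromosome were not called by limma. PLEKHA8, MTURN and ZNRF2 before it in the RefSeq gene order differed by 0.26, 0.07 and -0.14, and GGCT, GARS1-DT and GARS1 after it by -0.12, 0.03 and 0.02. The 5 genes whose levels were most like those of NOD1 over the 24 arrays were MRPS15 (Pearson r = 0.84), SLA (0.84), TRAFD1 (0.83), IPO13 (0.83) and MT1E (0.82). These points share line and treatment, and the correlation rests on the 4 arrays in which NOD1 was high. Their DOX differences in the NOD1 line were 0.27, 0.54, 0.58, 0.37 and 0.29, and none was called.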

How the data were processed

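Total RNA was measured on 24 Affymetrix Human Gene ST arrays, 4 in each of 6 groups. The authors deposited 1 log2 signal per array for every probe set. RMA and the oligo package made it, per the submitters' processing notes; their versions, and the genome build, were not given in the sources used here. Array medians ran from 8.06 to 8.85, so the gene table was quantile-normalized between arrays, which removes differences in overall brightness, including any that DOX caused.

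Of 33297 probe sets, 19460 had a single symbol in the platform annotation (19429 matched RefSeq, GRCh38.p14), 1754 had several and 12083 were unnamed here. The brightest probe set stood for each of 18417 genes, 769 of which had more than 1. Sequences and promoters came from RefSeq tables of the same build, with entries for 14239 of the measured genes.

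Genes were fitted with limma 3.58.1 (R 4.3.3) as 6 group means with 18 residual degrees of freedom and a gene was called where its p, adjusted by Benjamini-Hochberg over all genes, was under 0.05. All adjusted p-values are limma's. In 5 simulations 200 of 18417 genes were changed for DOX in the NOD1 line. Of changes of 0.5 on the log2 scale 63.6% were called, of changes of 1 97.0% and of changes of 2 100%, and 5.03% of calls were false. These shares hold for that many changed genes and for independent noise. With only 2 genes called in the measured contrast the adjustment was stricter, and KIAA1107 at 1.03 and S100A12 at 1.07 were not called there.

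The genes named are NOD1, called genes, the 12 higher and 12 lower genes of lowest p, up to 3 members of lowest p per list, first-line pathway genes, the 3 neighbours on each side of NOD1 and the 5 genes most like it. A few further members at an unadjusted p under 0.05, and the genes of at least 2-fold, were named after their values were seen. Of 19 gene lists with 810 entries, 733 entries were measured, and none of the mitochondrially encoded list. The comparison, the rule and the lists were chosen with earlier results of these data known. Normalization, arrays in the fit, weights, filters, probe set choice and each left-out array were tried as alternatives.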

Additional observations from a re-analysis of the deposited data

Results flagged for a closer look

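In the NOD1 line 168 groups of 4 arrays, for 84 named genes, were examined for an array far from the other 3, and 8 groups (4.8%) held one, where chance gives about 1 in 20. In the uninduced group the second array read 7.01 for PWAR6, against 8.18 to 8.40 in the others, and 10.14 for MSMO1, against 10.40 to 10.43. The first uninduced array read 9.74 for EGR1 (others 10.02 to 10.06), 10.88 for SEL1L (others 11.19 to 11.23) and 7.26 for KLHL38 (others 7.38 to 7.40). The third uninduced array read 10.48 for MT1E, against 10.74 to 10.77 in the others. In the DOX group the fourth array read 9.21 for BCL2L11, against 9.41 to 9.43, and the third read 6.92 for BCL2A1, against 7.06 to 7.09.

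The DOX effect differed between lines for the induced genes: that on NOD1 exceeded the effect in the vector line by 3.95 and in the NLRP4 line by 3.79, and that on NLRP4 lay at -3.84 relative to the NLRP4 line.

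Outside the single-symbol genes, 1 of 12083 unnamed probe sets was called, with 706 at an unadjusted p under 0.05, and none of 1754 with several symbols, with 93 at that level in limma. The called probe set, 7896502, differed by 2.81 with a standard error of 0.45 (adjusted p = 0.0380). Its deposited values were 6.71, 8.46, 6.74 and 9.57 without DOX and 10.80, 10.16, 10.91 and 10.90 with it, and its DOX difference was -0.40 in the vector line and 1.40 in the NLRP4 line. The uninduced arrays spread over more than the distance from the highest of them to the DOX arrays.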

How the results depend on the processing

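NOD1 was called under every alternative, with a change from 3.94 to 4.07 on the log2 scale. For DOX in the NOD1 line the number of called genes was 1, in place of 2, in the values as deposited, with only the arrays compared and without the 4 dimmest arrays, and it ran from 2 to 8 when 1 array was left out. It reached 8 without uninduced replicate 3 or 4 and 4 without uninduced replicate 2 or DOX replicate 2. LONRF3 was called in both fits with 8 genes and without the 6139 dimmest genes, CERS5 and USP6NL without uninduced replicate 3 and without DOX replicate 2, HSPA13 without uninduced replicate 3, PCGF5 and KLHDC2 without uninduced replicate 4, RPRD1B and DUSP18 without uninduced replicate 2. Against the NLRP4 line the number was 1 without the 6139 dimmest genes, which leaves NLRP4 out of the fit, and 2 to 4 with 1 array left out (4 without uninduced replicate 2 or DOX replicate 1). Against the vector line it was 1 to 2, with KLHL5 added without uninduced replicate 4. Why these counts differ was otherwise not tested.

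Uncalled differences near 0 changed sign. In the values as deposited IL6 stood at -0.055, FOS at -0.04, JUN at -0.01 and NLRP4 at -0.0875. With arrays centred on their medians IL6 stood at -0.01 and NLRP4 at -0.0425, with array weights FOS at -0.00723 and NLRP4 at -0.0590, and with probe sets averaged NLRP4 at -0.000781. Without the 4 dimmest arrays FOS stood at -0.0252 and NLRP4 at -0.126. With 1 array left out NFKB1 ran from -0.161 to 0.162, CCL2 from -0.109 to 0.279, FOS from -0.0599 to 0.043, IL6 from -0.0409 to 0.0793, JUN from -0.00359 to 0.107 and NLRP4 from -0.123 to 0.100. For single genes under the other settings, 724 values kept direction and side of the threshold, 11 reversed, 3 were no longer called and 1 was newly called. No paired analysis was possible because the columns carry array order numbers and no replicate numbers shared between groups. In the main fit the smallest called difference was 0.83 on the log2 scale, for KLHL5. Larger ones of 1.07 for S100A12 and -1.47 for PWAR6 were not called. With 4 arrays a group, an uncalled difference is therefore not shown to be absent.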
